A study of Mus musculus with 13 samples.

Results

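Imprinted genes are expressed from the maternal or the paternal copy only, and many of them set how large the fetus and its organs grow. The 10 genes described here, of 53465 in the liver count table, belong to imprinted loci that liver tumors can switch on again: H19, Igf2, Meg3, Rian, Mirg, Dlk1, Peg3, Plagl1, Cdkn1c and Grb10. They were chosen by locus, with earlier results of these data known, and matched by Ensembl gene identifier. RNA came from the livers of male BALB/c mice that received the carcinogen dimethylbenz[a]anthracene (DMBA) on the skin as pups and were kept on high fat diet (HFD) for 30 weeks by the labels. All 13 livers carry the label cancer. The groups were 6 WT mice and 7 Nod2-/- mice, which lack the pattern recognition receptor Nod2 in every cell and were not littermates of the WT mice. No untreated or chow-fed liver was analysed here, so every value is from a DMBA + HFD liver. The paper found liver tumors in a larger share of Nod2-/- than of WT males given DMBA and HFD. The labels do not say how much tumor tissue each piece of liver held, and in bulk RNA fewer cells of a type cannot be told apart from less RNA per cell.

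H19, a maternally expressed long non-coding RNA, and Igf2, a paternally expressed fetal growth factor, lie side by side on chromosome 7 and share enhancers. Dlk1, a paternally expressed Notch-like transmembrane protein, and the maternally expressed non-coding RNAs Meg3, Rian and Mirg form the imprinted domain of distal chromosome 12. Peg3 (a zinc finger protein), Plagl1 (a zinc finger transcription factor that regulates other imprinted genes), Cdkn1c (the cyclin-dependent kinase inhibitor p57) and Grb10 (an adaptor that dampens insulin and Igf receptor signalling) come from separate imprinted loci. In mouse liver most of these genes are high before birth and fall soon after it.

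Livers of Nod2-/- mice held more H19 RNA than WT livers on average, but the values varied widely between mice and the difference did not pass 5% FDR. The fitted log2 fold change of H19 was 2.45 ± 1.01 (SE, 6 WT and 7 Nod2-/- mice, adjusted p = 0.169, edgeR quasi-likelihood test). Plagl1 was 0.87 ± 0.22 log2 units higher (SE, adjusted p = 0.0606, edgeR), the member nearest to the threshold, and Peg3 was 0.65 ± 0.30 higher (SE, adjusted p = 0.214, edgeR). Meg3 and Rian went the other way, with fitted values of -1.25 ± 0.65 and -1.21 ± 0.63 (SE, adjusted p = 0.262 and 0.266, edgeR). Igf2 had 1 count in all 13 livers together, which may not be read as a level because most of its exon bases also belong to another gene. WT replicate 3 was the highest WT liver for 7 of the 10 members. Without it H19, Peg3 and Plagl1 each passed 5% FDR, as did 8.49% of the 13611 genes tested without that liver. For each of these members it was the highest WT liver, so leaving it out widens the difference by construction. No other fit that left out a mouse called a member.

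The expression filter kept 7 of the 10 members among 13545 genes tested, and Igf2, Mirg and Dlk1 fell below it. None of the 7 passed 5% FDR in edgeR, against 1.16% of all tested genes. Of the 7, 3 had an unadjusted p under 0.05 (H19, Peg3 and Plagl1, all higher in Nod2-/-), against 23.1% of all tested genes. DESeq2 called 1 member (Plagl1) and 8.41% of the 14370 genes with an adjusted p, and limma voom with quality weights called 2 (H19 and Plagl1) and 6.22% of all tested genes. The fitted value was above 0 for 5 of the 7, against 52.3% of tested genes. In no member were the WT and Nod2-/- values fully separated, whereas 1.44% of tested genes had groups that did not overlap.

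The RNAs of the H19, Igf2 and chromosome 12 loci are also hosts of miRNAs, which the count table cannot measure because the libraries were made from polyA RNA. In RefSeq (GRCm38.p6), 39 mature miRNAs lie within members on the member's strand: 2 in H19, 2 in Igf2, 3 in Meg3, 6 in Rian and 26 in Mirg. The table has rows for 22 of their miRNA genes, and none exceeded 1 count in a mouse. The mature sequences below show the H19 pair, a representative of Meg3 and of Rian, and the only pair with a common seed, with the seed (bases 2 to 8) in capitals.
miR-675-5p: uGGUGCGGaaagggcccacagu
miR-675-3p: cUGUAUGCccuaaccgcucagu
miR-770-5p: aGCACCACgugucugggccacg
miR-370-3p: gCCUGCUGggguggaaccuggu
miR-453: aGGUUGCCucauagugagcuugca
miR-496a-5p: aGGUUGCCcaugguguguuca
The 39 miRNAs carry 38 different seeds, and miR-453 and miR-496a-5p, both within Mirg, share theirs.

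Promoter windows are shown for Meg3 and Rian, whose levels moved together among the mice, and for Peg3, which carries a motif in common with Meg3. Each window runs from 250 bases before to 50 bases after a RefSeq start on GRCm38.p6. Capitals mark exact matches on either strand to the cAMP response element TGACGTCA, the TATA box TATAAA, the CCAAT box CCAAT, the GC box GGGCGG or the E box CACGTG.
Meg3, chr12:109540746-109541045, plus strand: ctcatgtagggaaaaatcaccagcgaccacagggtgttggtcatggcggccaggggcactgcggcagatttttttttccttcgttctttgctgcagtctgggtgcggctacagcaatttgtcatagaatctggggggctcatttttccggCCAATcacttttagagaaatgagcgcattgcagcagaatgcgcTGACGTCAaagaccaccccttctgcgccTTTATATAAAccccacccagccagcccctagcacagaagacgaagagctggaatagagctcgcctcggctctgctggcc
Rian, chr12:109603695-109603994, plus strand: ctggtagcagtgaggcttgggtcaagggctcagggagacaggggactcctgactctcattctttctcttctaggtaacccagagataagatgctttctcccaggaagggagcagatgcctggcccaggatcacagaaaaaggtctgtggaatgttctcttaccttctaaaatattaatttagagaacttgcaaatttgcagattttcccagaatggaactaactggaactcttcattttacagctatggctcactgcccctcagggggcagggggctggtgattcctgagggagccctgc
Peg3, chr7:6730370-6730669, minus strand: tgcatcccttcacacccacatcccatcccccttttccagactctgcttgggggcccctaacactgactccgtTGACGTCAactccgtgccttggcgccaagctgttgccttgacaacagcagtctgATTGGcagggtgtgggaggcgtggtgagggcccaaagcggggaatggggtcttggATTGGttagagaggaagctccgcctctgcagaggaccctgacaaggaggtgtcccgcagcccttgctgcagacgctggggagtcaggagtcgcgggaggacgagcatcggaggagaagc
The Meg3 window held 13 CpG dinucleotides, a CCAAT box, a cAMP response element that ended 50 bases before the start, and 2 overlapping TATA matches that began 29 and 25 bases before it. The Rian window held no CpG and none of the 5 motifs. A cAMP response element was found in 2 of the 13 windows listed for 8 of the members (Meg3 and Peg3) and in 1.79% of 32851 promoter windows of the same length. The TATA box occurred in 1 of the 13 and in 13.6% of all windows, the CCAAT box in 4 and 37.4%, the GC box in 4 and 35.7%, and the E box in 1 and 7.15%. A further Meg3 start, 4 Igf2 starts, 2 Grb10 starts and the starts of Plagl1, Dlk1 and Mirg made up the rest, and H19 and Cdkn1c had no entry.

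H19 lies at chr7:142575529-142578143 on the minus strand (GRCm38, GENCODE) and is annotated as a lincRNA. WT livers held 18, 22, 1998, 78, 177 and 632 raw counts in replicates 1 to 6. Nod2-/- livers held 5418, 3555, 227, 4222, 1447, 183 and 1863 in replicates 1 to 7. After scaling all libraries to a common size (normalized counts), WT replicates 3 and 6 lay within the range of the Nod2-/- mice, and Nod2-/- replicates 3, 5 and 6 lay within the range of the WT mice, so that the groups overlapped. WT livers averaged 441 ± 694 (SD, n = 6) and Nod2-/- livers 2429 ± 2110 (SD, n = 7). Of the 7 Nod2-/- livers, 4 were above every WT liver, and 4 of the 6 WT livers were below every Nod2-/- liver. The 95% interval of the fitted change ran from 0.29 to 4.62 log2 units. An exact two-sided permutation test of the group means over all 1716 splits of the mice gave p = 0.0565.

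H19 was also among the most variable genes of the liver within a genotype. The highest WT value was 97.9 times the lowest, and the highest Nod2-/- value was 27.5 times the lowest. Its SD within genotypes was 2.22 on the log2 CPM scale (CPM, counts per 1000000 of the TMM-scaled library total), where the median gene had 0.273, and only 6 of the 13545 tested genes had a larger one. Without WT replicate 3 the WT mean was 168 ± 208 (SD, n = 5), the log2 fold change was 3.82 and the adjusted p was 0.0364 (edgeR). limma voom with quality weights, which gives aberrant libraries less weight, placed H19 past 5% FDR (3.81, adjusted p = 0.0486), whereas DESeq2 did not (2.46, adjusted p = 0.0938). The weight that limma voom gave WT replicate 3 was not examined, so its call may not be independent of the fit without that liver. The summed level of cholangiocyte markers, most of it Spp1, was 37.4, 36.0, 217, 58.0, 97.5 and 125 CPM in WT replicates 1 to 6, with replicates 1 and 2 lowest and replicate 3 highest as for H19. In Nod2-/- replicates 1 to 7 the sum was 224, 298, 182, 403, 108, 158 and 227 CPM, highest in replicate 4 and lowest in replicate 5, where H19 was highest in replicate 1 and lowest in replicate 6. Of these 8 markers, 6 were tested, 4 had fitted values above 0 and 1 (Sox9, 1.29) passed 5% FDR. Spp1, Cldn7 and Epcam stood at 1.30, 0.44 and 0.24 (adjusted p = 0.109, 0.629 and 0.661, edgeR). The keratins Krt7 and Krt19 stood at -0.05 and -0.40 (adjusted p = 0.943 and 0.587, edgeR). The part of these cells in the H19 values was not tested.

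**Figure D1:**
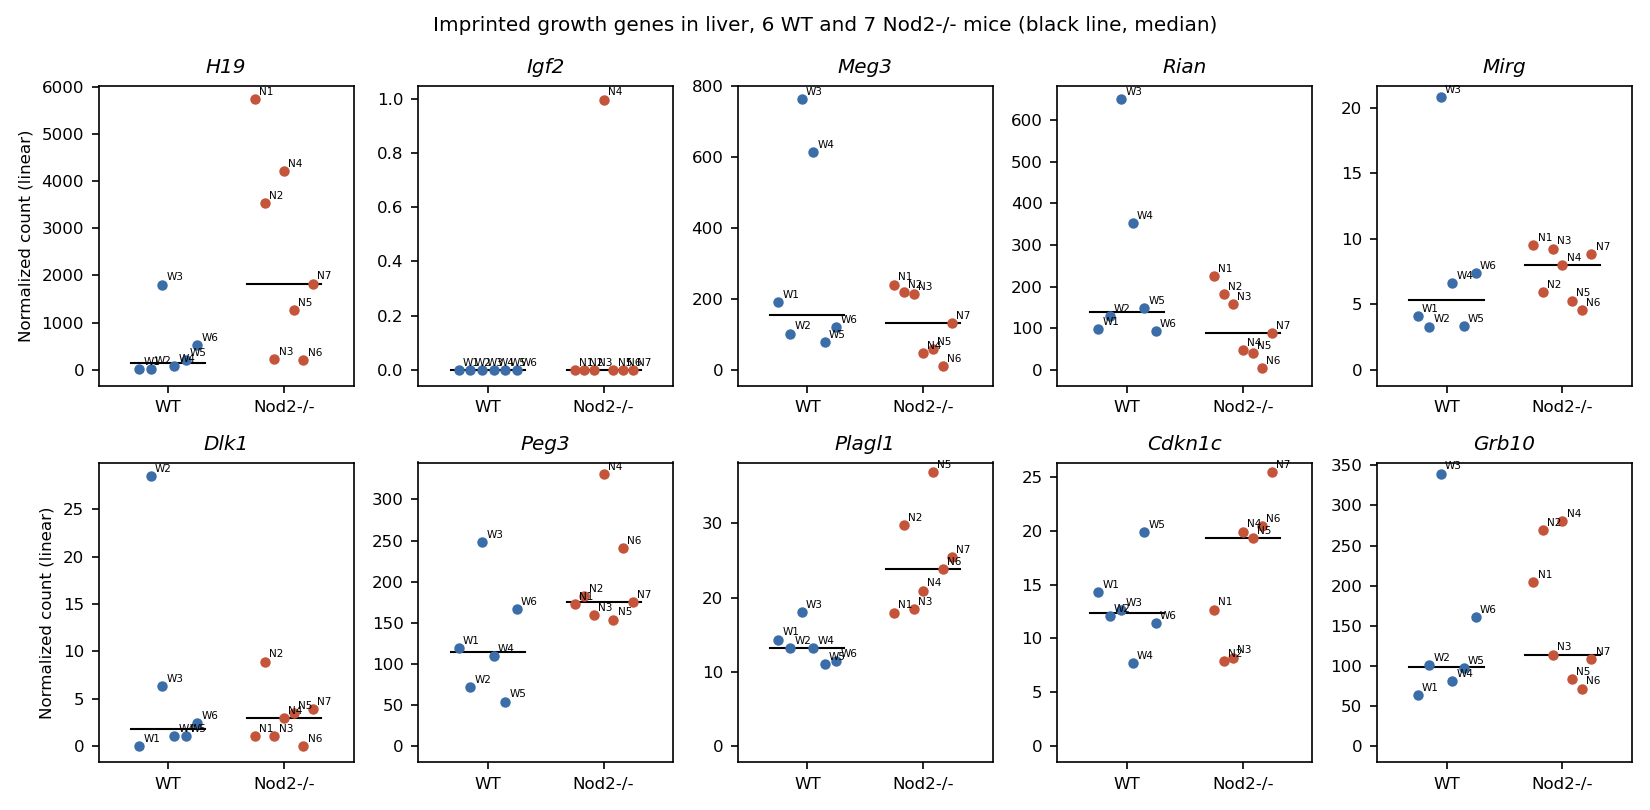
Normalized counts (linear axis, a separate scale for each gene) of the 10 members in each liver, with W for WT, N for Nod2-/- and the replicate number beside each point and the group median as a black line. H19 reached 5730 in Nod2-/- replicate 1 and 18.5 in WT replicate 1, and WT replicate 3 was the top WT liver for 7 members.

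Igf2 (chr7:142650766-142666816, minus strand, protein coding) lies 72.6 kb from H19 and was listed at 0 in 12 of 13 livers and at 1 in Nod2-/- replicate 4. A count of 0 allows up to 3 counts, which is 0.148 to 0.206 CPM in these libraries, for counting error only. This near absence may not be read as a level. In GENCODE M21, 62.8% of the Igf2 exon bases also belong to Gm49394 on the same strand, a gene listed at 0 in every liver, and reads in shared exons may have been counted for neither gene. Snurf, whose exons all lie within another gene, was likewise listed at 0 in every liver while its host Snrpn held 115 to 205 counts. Ins2, the next gene on the far side of Igf2, was at 0 in every WT liver and reached 14 counts in a Nod2-/- liver. Mrpl23, a mitochondrial ribosomal protein gene near H19, was 0.10 ± 0.15 log2 units higher in Nod2-/- (SE, adjusted p = 0.723, edgeR).

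Meg3 (chr12:109541001-109571726, plus strand, lincRNA) held 185, 93, 844, 561, 70 and 146 counts in WT replicates 1 to 6. It held 227, 220, 207, 47, 65, 9 and 134 in Nod2-/- replicates 1 to 7. The WT group was led by replicates 3 and 4, both above every Nod2-/- liver, and 3 Nod2-/- livers (replicates 4, 5 and 6) were below every WT liver. Normalized counts averaged 311 ± 299 in WT (SD, n = 6) and 131 ± 94.2 in Nod2-/- (SD, n = 7, exact permutation p = 0.192). Rian (chr12:109603940-109661716, plus strand), a non-coding RNA that starts 32.2 kb downstream of Meg3, held 96, 117, 719, 321, 134 and 113 counts in WT and 212, 184, 153, 47, 46, 3 and 90 in Nod2-/- livers. Its normalized means were 245 ± 221 (SD, n = 6) and 106 ± 82.7 (SD, n = 7, exact permutation p = 0.139), again with WT replicates 3 and 4 at the top and Nod2-/- replicate 6 at the bottom. The fitted differences of both genes shrank to -0.76 and -0.64 without WT replicate 3 (adjusted p = 0.461 and 0.519, edgeR). Nod2-/- replicate 6, at 9 and 3 counts, had the lowest level of both, and the highest Nod2-/- value was 23.4 times the lowest for Meg3 and 65.7 times for Rian.

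Mirg (chr12:109729764-109749460, plus strand), the miRNA host farther downstream, held 4, 3, 23, 6, 3 and 9 counts in WT and 9, 6, 9, 8, 6, 4 and 9 in Nod2-/- livers. WT replicate 3 was again the highest, and the normalized means of 7.57 ± 6.70 (SD, n = 6) and 7.33 ± 2.04 (SD, n = 7) differed by less than the spread between mice (exact permutation p = 0.965). Dlk1 (chr12:109452823-109463336, plus strand), the protein-coding gene 77.7 kb upstream of Meg3, held 0, 26, 7, 1, 1 and 3 counts in WT and 1, 9, 1, 3, 4, 0 and 4 in Nod2-/- livers. WT replicate 2 carried most of the WT counts, and 8 of 13 livers were at or under 3 counts, so that a difference was not detectable at this depth (exact permutation p = 0.608). The ratio of Meg3 to Rian counts ranged from 0.522 to 3 among the livers with a median of 1.29, and the ratio of 3 came from Nod2-/- replicate 6, where it rests on 9 and 3 counts.

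Plagl1 (chr10:13060504-13131694, plus strand) held 14, 12, 20, 12, 10 and 14 counts in WT and 17, 30, 18, 21, 42, 21 and 26 in Nod2-/- livers. In normalized counts every Nod2-/- liver but replicate 1 was above every WT liver, and replicate 1 lay just under WT replicate 3 and replicate 3 just over it. WT livers averaged 13.5 ± 2.53 normalized counts (SD, n = 6) and Nod2-/- livers 24.8 ± 6.76 (SD, n = 7). The exact permutation test gave p = 0.00291, where the smallest p that 1716 splits allow is 0.000583. The 95% interval of the fitted change was 0.41 to 1.33 log2 units. Plagl1 passed 5% FDR in DESeq2 (0.86, adjusted p = 0.0256), in limma voom (0.83, adjusted p = 0.0361) and in edgeR without WT replicate 3 (0.96, adjusted p = 0.0287). It had the smallest spread within genotypes of the tested members (SD 0.297 log2 CPM). At 10 to 42 counts a liver, counting error is a large part of each value.

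Peg3 (chr7:6703892-6730431, minus strand) held 116, 65, 274, 100, 49 and 203 counts in WT and 163, 184, 155, 332, 175, 212 and 179 in Nod2-/- livers. The lowest Nod2-/- liver lay above 4 of the 6 WT livers, but WT replicates 3 and 6 reached into the Nod2-/- range. Normalized means were 128 ± 70.5 (SD, n = 6) and 202 ± 63.7 (SD, n = 7, exact permutation p = 0.0734). Without WT replicate 3 the difference was 0.94 log2 units (adjusted p = 0.0471, edgeR).

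Cdkn1c (chr7:143458339-143461050, minus strand), 880 kb from H19 in the neighbouring Kcnq1ot1 domain, held 14, 11, 14, 7, 18 and 14 counts in WT and 12, 8, 8, 20, 22, 18 and 26 in Nod2-/- livers. In normalized counts Nod2-/- replicates 4, 6 and 7 were above every WT liver and replicates 1, 2, 3 and 5 within the WT range, and the fitted difference was 0.33 ± 0.31 log2 units (SE, adjusted p = 0.537, edgeR). Leaving out a mouse gave 0.19 (without Nod2-/- replicate 7) to 0.48 (without WT replicate 5), and limma voom gave 0.13. Gm44732, annotated on the opposite strand over 30.7% of its exon bases, had no count. Kcnq1ot1, the non-coding RNA that silences this domain on the paternal copy, was 0.07 ± 0.22 higher in Nod2-/- (SE, adjusted p = 0.879, edgeR). Grb10 (chr11:11930508-12038683, minus strand) held 62, 92, 376, 74, 88 and 196 counts in WT and 193, 272, 111, 281, 95, 63 and 111 in Nod2-/- livers. Its groups overlapped over nearly the same range, led by WT replicate 3, and the fitted difference was 0.20 ± 0.42 (SE, adjusted p = 0.809, edgeR). Without WT replicate 3 it was 0.67 (adjusted p = 0.249, edgeR), and without Nod2-/- replicate 4 it was 0.0084 (adjusted p = 0.994, edgeR). Ddc, the enzyme gene beside Grb10 that is imprinted in the heart, was -0.40 ± 0.27 (SE, adjusted p = 0.377, edgeR).

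**Figure D2:**
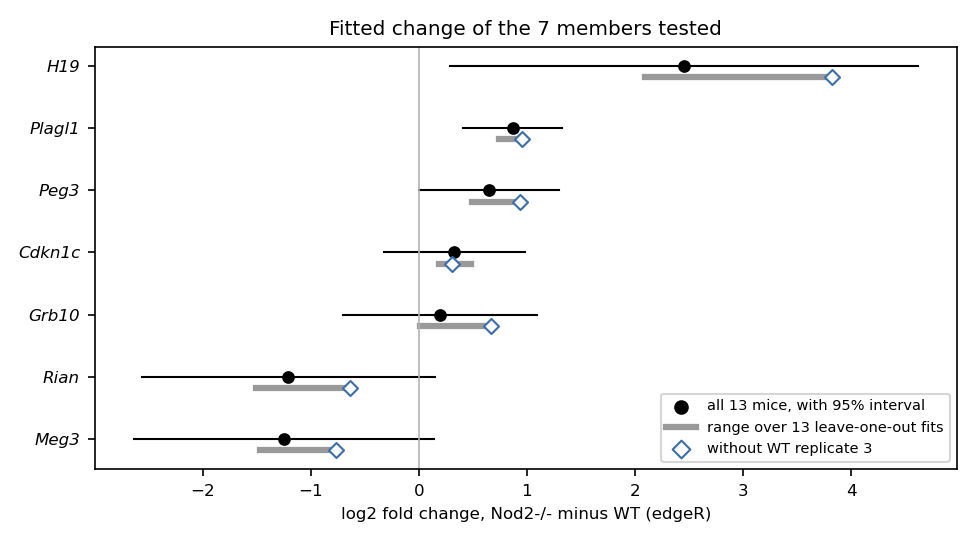
Fitted log2 fold change (Nod2-/- minus WT) of the 7 tested members from edgeR, with the 95% interval (black line), the range over the 13 fits that each left out a mouse (grey bar) and the fit without WT replicate 3 (diamond). Leaving out WT replicate 3 moved H19 from 2.45 to 3.82, gave the top of the grey bar for every member but Cdkn1c and kept every direction.

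Per length, the members lay at different levels. The median of WT livers was 3.45 CPM per kb of exon for H19, 0.657 for Grb10, 0.517 for Peg3, 0.515 for Meg3, 0.457 for Rian and 0.366 for Cdkn1c. Plagl1 (0.101), Mirg (0.0442) and Dlk1 (0.0190) were lower. Grb10, Peg3, Meg3 and Rian overlapped from mouse to mouse and their order is not firm. In Nod2-/- livers the H19 median was 44.8 CPM per kb, and the others had medians between 0.0319 (Dlk1) and 0.794 (Peg3), apart from Igf2. Igf2 had a median of 0 in both groups, which may not be read as a level.

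Within a genotype the members did not move as a block. The plot of levels across mice shows H19 low in WT replicates 1, 2 and 4, and Meg3 and Rian low in Nod2-/- replicates 4, 5 and 6. After subtracting the genotype means, Pearson's r of log2 CPM over the 13 livers was 0.94 for Meg3 and Rian (Spearman's rho 0.80) and 0.84 for H19 and Grb10 (rho 0.84). Leaving out the 2 livers farthest from the median of Meg3 (WT replicate 3 and Nod2-/- replicate 6) gave 0.86, and leaving out those of H19 (WT replicates 1 and 2) gave 0.85. Meg3 and Cdkn1c ran in opposite directions (r = -0.62, or -0.72 without the same 2 livers as for Meg3). Plagl1 had r between -0.01 and 0.19 with the other tested members. These values describe 21 pairs over 13 livers that share depth and tissue makeup, and were not tested.

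**Figure D3:**
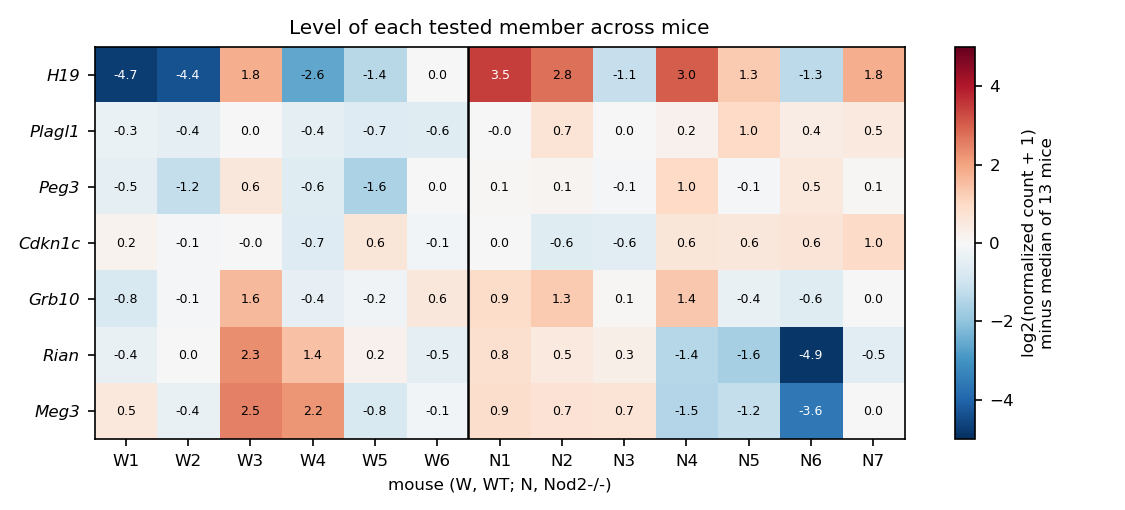
Level of the 7 tested members in each liver as log2 of the normalized count plus 1, minus the median of the 13 livers (colour and printed value; W for WT, N for Nod2-/-). H19 ran from -4.7 in WT replicate 1 to 3.5 in Nod2-/- replicate 1, and Rian reached -4.9 in Nod2-/- replicate 6.

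**Figure D4:**
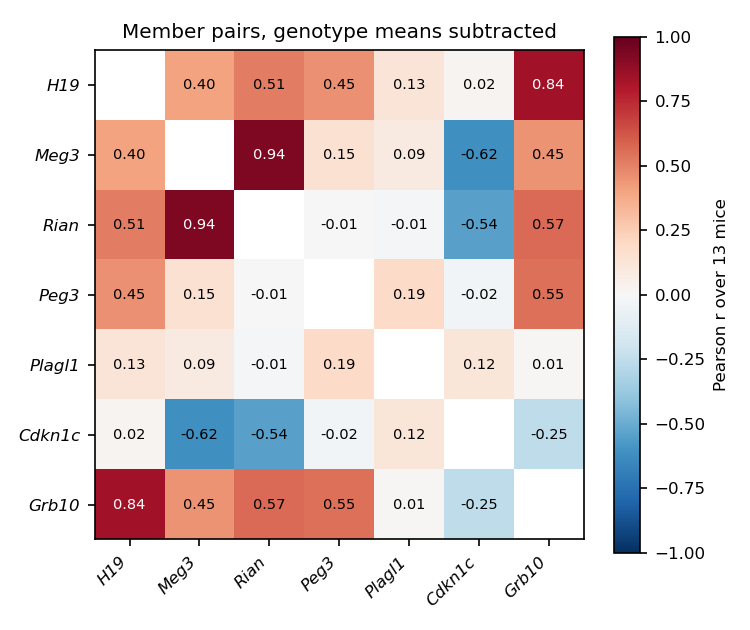
Pearson's r between pairs of tested members over 13 livers, from log2 CPM with the mean of each genotype subtracted. Meg3 with Rian (0.94) and H19 with Grb10 (0.84) stand highest, and Meg3 with Cdkn1c (-0.62) lowest.

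The tested genes outside the members whose levels most resembled each member were taken by the same r. For H19 these were B4galt6, a sphingolipid glycosyltransferase (0.97), Ly6d (0.95) and Spink1, a serine protease inhibitor (0.95). For Meg3 they were Flcn (folliculin, 0.95), A930004J17Rik (0.94) and Gm37893 (0.93). For Rian they were Flcn (0.96), Brip1, a DNA helicase (0.95), and Atp7a, a copper transporter (0.93). Grb10 was closest to Sgsm1, Itih5 and Ust (0.96, 0.96 and 0.95). Peg3 was closest to Jade3, Diexf and Tpra1 (0.92, 0.89 and 0.88). Plagl1 was closest to Ivns1abp, Bmpr2 and its paralog Plagl2 (0.81, 0.80 and 0.79), and Cdkn1c to Srek1ip1, Cish and Bsg (0.89, 0.89 and 0.87). Each is the top of 13536 candidates, so a high value is what ranking selects.

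Of 57 other imprinted genes, 32 were tested and none passed 5% FDR in edgeR, with 6 at an unadjusted p under 0.05 (3 higher, 3 lower) and 2 called by DESeq2. The median log2 fold change of the 32 was 0.02, and the median of all tested genes was 0.02. Mest, a hydrolase gene expressed from the paternal copy, had the largest fitted value (1.02 ± 0.45, SE), with 31.9 ± 21.3 normalized counts in WT and 65.7 ± 47.9 in Nod2-/- livers (SD, adjusted p = 0.196, edgeR). Copg2 overlaps 23.1% of the Mest exon bases on the opposite strand. Ppp1r9a followed at 0.63 ± 0.28 (SE, adjusted p = 0.197, edgeR). The lowest was Osbpl5, an oxysterol-binding protein gene beside the Kcnq1ot1 domain, at -1.14 ± 0.32 (SE, adjusted p = 0.0765, edgeR), with 5 of 7 Nod2-/- livers below every WT liver, and Ddc was the next.

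Of 24 genes of the Igf axis, 16 were tested, and Igfals, the acid-labile subunit that holds Igf1 in the circulating complex, was the only one past 5% FDR. It averaged 2708 ± 377 normalized counts in WT and 1560.0 ± 383 in Nod2-/- livers (SD), with all 7 Nod2-/- livers below every WT liver and a fitted value of -0.80 ± 0.16 (SE, adjusted p = 0.0365, edgeR). That call was lost in 7 of the 13 fits that left out a mouse (WT replicates 1, 2, 4 or 5, Nod2-/- replicates 2, 6 or 7), where the adjusted p reached 0.0985. Igfbp1 had the highest fitted value of the axis (1.11 ± 0.76, adjusted p = 0.395, edgeR, or 1.78 without WT replicate 3, adjusted p = 0.148), then Igf2bp2, an RNA-binding protein of fetal mRNAs (0.92 ± 0.38, adjusted p = 0.166, edgeR). Igfbp2 was the lowest after Igfals (-0.43 ± 0.34, adjusted p = 0.467, edgeR).

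Of 22 genes that keep imprints or repress H19 in the adult liver, 20 were tested, none passed 5% FDR in edgeR, 3 had an unadjusted p under 0.05 (1 higher, 2 lower) and DESeq2 called 2. Uhrf1, which guides Dnmt1 to replicated DNA, was 1.01 ± 0.38 higher (SE, adjusted p = 0.137, edgeR) and Dnmt3b, a de novo methyltransferase, 0.41 ± 0.25 (SE, adjusted p = 0.337, edgeR). The lowest were Zbtb20, a repressor of Afp after birth, at -0.62 ± 0.19 (SE, adjusted p = 0.0855, edgeR) and Zfp445, a zinc finger protein that protects imprints, at -0.56 ± 0.15 (SE, adjusted p = 0.0662, edgeR). All 12 fetal liver and tumor markers were tested, and 11 had fitted values above 0 with a list median of 1.12. Sox9, a progenitor and bile duct transcription factor, was the only one past 5% FDR (1.29 ± 0.25 SE, adjusted p = 0.0324, edgeR), and that call was lost in 7 of the 13 fits that left out a mouse (WT replicates 1, 2, 4 or 5, Nod2-/- replicates 4, 6 or 7, adjusted p up to 0.0827). Tff3 and Spp1 had the highest values of this list (2.19 and 1.30, adjusted p = 0.113 and 0.109, edgeR), Aldh1a1 the lowest (-0.64, adjusted p = 0.196, edgeR), and Afp stood at 0.02 ± 0.99 (SE, adjusted p = 0.991, edgeR). Without WT replicate 3, 5 of these markers passed 5% FDR, as did 8.49% of the genes tested in that fit. They were Afp (2.88), Spp1 (1.76), Ly6d (2.62), Golm1 (2.33) and Sox9 (1.34), with adjusted p = 0.0287, 0.0243, 0.0340, 0.0188 and 0.0180 (edgeR). That liver held 2497 Afp counts, the highest of all livers, so leaving it out widens the Afp difference by construction. Osbpl5 (-1.28, adjusted p = 0.0322) and Zfp445 (-0.57, adjusted p = 0.0426) also passed 5% FDR in that fit (edgeR).

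**Figure D5:**
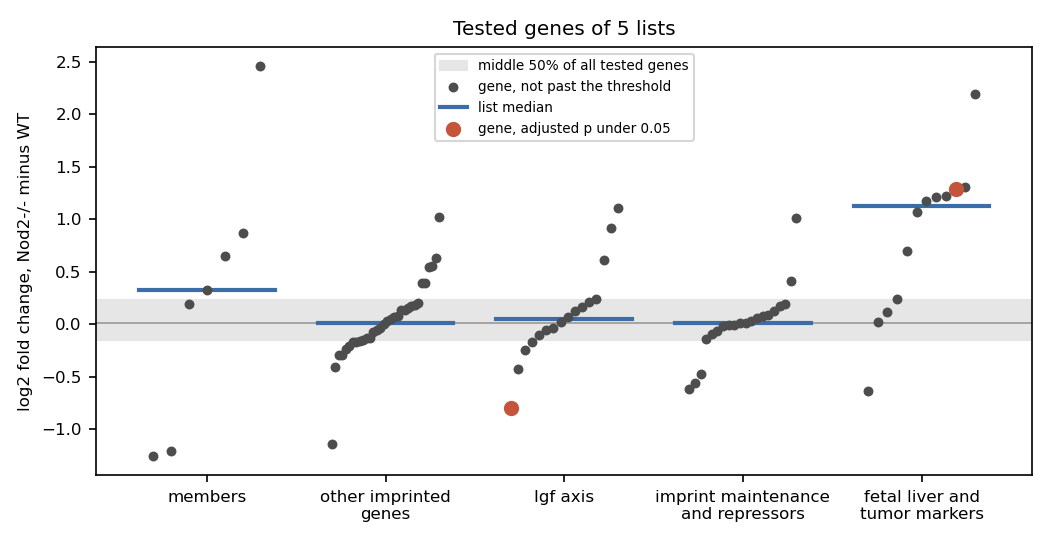
Fitted log2 fold change (Nod2-/- minus WT, edgeR) of the tested genes of 5 lists, with list medians in blue, genes past 5% FDR in red and the middle 50% of all tested genes in grey (-0.15 to 0.23). Igfals (-0.80) and Sox9 (1.29) are the red points, and H19 (2.45) is the highest member.

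Total counts ranged from 13824780 to 20579984 per liver. Nod2 itself held 0 to 4 counts in WT and 1 to 6 in Nod2-/- livers, too few to check the genotype. Hepatocyte markers (Alb, Apoa1, Ttr and 5 more) summed to 80910 to 165500 CPM across the livers, with Alb the highest in both groups. None of the 8 passed 5% FDR in edgeR. Cyp2e1, Cps1 and Hnf4a were lower in Nod2-/- livers (-0.94, -0.38 and -0.34, adjusted p = 0.0777, 0.150 and 0.0805, edgeR), and DESeq2 called each of them. Apoa1 was 0.53 higher (adjusted p = 0.198, edgeR), and the remaining markers had an adjusted p of 0.264 or more (edgeR). Stellate cell and fibroblast markers had 12 of 12 genes tested and none past 5% FDR or at an unadjusted p under 0.05 in edgeR (0 in DESeq2). Their sum was highest in WT replicate 3 (317 CPM against 126 to 207 elsewhere), the same liver that led 7 members. Of these markers Reln had the highest mean in both groups and reached 3107 counts in a WT liver, and its share of the peak was not tested. Endothelial markers (8 of 8 tested, none past 5% FDR in edgeR, 3 at an unadjusted p under 0.05 and 2 called by DESeq2) were also highest in WT replicate 3, at 223 against 143 to 210. Lung epithelial markers summed to 14.2 to 203 CPM in WT and 3.0 to 33.6 in Nod2-/- livers, highest in WT replicate 4, and 5 of the 6 tested were lower at an unadjusted p under 0.05 with none past 5% FDR (edgeR, 7 called by DESeq2, which tested more). Neutrophil markers summed to 3.24 to 7.60 CPM in WT and 4.53 to 975 in Nod2-/- livers, highest in Nod2-/- replicate 7, with none of the 3 tested past 5% FDR in edgeR, all 3 at an unadjusted p under 0.05 and 3 called by DESeq2. The part of other cells in the members' values was not tested.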

How the data were processed

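Libraries were made from polyA liver RNA with a stranded kit and sequenced as paired ends. Raw counts per gene of 13 livers were deposited by the authors, who used Trimmomatic 0.33 for trimming and TopHat2 2.1.1 for mapping to GRCm38 (GENCODE M16). The counting program and its strand setting are not given in the sources used here, and exon overlaps were read from GENCODE M21. Of 53465 genes, 53274 were matched to a symbol, and 1 row without an identifier was left out.

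Counts were filtered with filterByExpr, scaled by TMM and compared with edgeR 4.0.16 (quasi-likelihood, two-sided, Benjamini-Hochberg over 13545 genes) in R 4.3.3. The fit was tested on simulated data. Alternatives were DESeq2 1.42.0, limma 3.58.1 voomWithQualityWeights, 2 other scalings, 2 other filters, a robust fit, a replicate block and leaving out each mouse. The labels give separate mice. Library pairs within a group differed beyond counting noise (the lowest chi-square was 10.7 for each degree of freedom). 

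Named genes were all members, and of each other list the genes past 5% FDR and otherwise the 2 highest and 2 lowest, for each tested member the 3 genes with the highest r, and neighbours with at least 10 counts in a mouse. Genes that share exons, with Snurf and Snrpn, and the keratins, Cldn7 and Epcam were added after their values were seen. Members and lists were chosen with earlier results of these data known. The authors' methods place the mice on HFD for longer than the labels' 30 weeks. 95% intervals come from the edgeR fit and include the spread between mice, and the floors cover counting error only.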

Additional observations from a re-analysis of the deposited data

Results flagged for a closer look

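In 20 groups of member values tested for a liver whose gap to its nearest neighbour takes up most of the group's range, 5 stood out. The nominal rate of 1 in 20 does not hold for these skewed linear counts from the same livers, so 5 cannot be set against it. Igf2 was at 0 in every WT liver and could not be flagged there. In WT replicate 3, H19 had 1806 normalized counts, against 517 in the next WT liver, Grb10 had 339.8 against 160.5 and Mirg had 20.8 against 7.37. In WT replicate 2, Dlk1 had 28.5 against 6.33. In Nod2-/- replicate 4, Igf2 had 0.997 normalized counts, which is a count of 1 beside livers at 0.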

How the results depend on the processing

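Each of the 7 tested members kept its direction in every alternative fit that kept it. Without WT replicate 3, 3 members passed 5% FDR, and every other fit that left out a mouse called 0. Over the 13 fits that each left out a mouse, members with an unadjusted p under 0.05 ranged from 1 to 3. Over the same fits the genes called higher in Nod2-/- ranged from 20 to 697 and lower from 20 to 459, from 88 and 69 with all mice, the other imprinted genes and the imprint maintenance genes called from 0 to 1 each, the Igf axis genes from 0 to 1 and the fetal liver and tumor markers from 0 to 5. DESeq2 called 630 genes higher and 579 lower, 1 member, 2 other imprinted genes, 2 imprint maintenance genes and 2 fetal markers. limma voom with quality weights called 519 and 324 genes, 2 members, 1 other imprinted gene and 4 fetal markers. Total counts per library gave 33 lower genes and 0 Igf axis genes. The fit without a filter on low counts covered all 10 members and called 0 at 5% FDR. In it 5 members had an unadjusted p under 0.05, with H19, Peg3 and Plagl1 higher and Meg3 and Rian lower. The share of all genes under 0.05 in that fit is not given here, so the 5 cannot be set against it. The exact permutation p of H19 was 0.0268 and of Peg3 0.0408 on log2 CPM, and Mirg changed its sign there (p = 0.926). The cause of these shifts was not tested.

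With the replicate number as a block, 17 genes were higher and 18 lower, with 0 Igf axis genes and 0 fetal markers, and 0 members passed 5% FDR, as with no block. The mice share only a number. The correlation of same-numbered WT and Nod2-/- livers ran from -0.30 to 0.30, and 0 of the 6 numbers had its own partner as the closest. Levels of 10 to 42 counts, as for Plagl1, limit precision, and Mirg and Dlk1 are too low to compare. The Igf2 counts may not be read as a level.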

Other observations

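Pairs of a member and a gene of the lists, chosen after their values were seen, gave the following r within genotypes over the 13 livers, with no test. H19 followed Gpc3, a fetal heparan sulfate proteoglycan (0.94), and Afp, alpha-fetoprotein (0.89), and Grb10 followed the same genes (0.91 and 0.89). Leaving out WT replicates 1 and 2, the livers farthest from the median of H19, gave 0.92 for Gpc3 and 0.91 for Afp with H19. Meg3 and Rian followed Igf2r, the imprinted receptor that clears Igf2 (0.80 and 0.80), and Zfp57, which protects imprints (0.78 and 0.73). Without WT replicate 3 and Nod2-/- replicate 6, the livers farthest from their medians, these were 0.74 and 0.88 for Igf2r and 0.68 and 0.58 for Zfp57. Grb10 and H19 also had r of 0.78 and 0.66 with Zfp57, or 0.62 and 0.45 without WT replicate 3. H19 and Zhx2, a repressor of H19, Afp and Gpc3 in adult mouse liver, had an r of -0.42. In WT livers alone it was -0.07, and in Nod2-/- livers alone -0.70.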
